A study of Mus musculus with 18 samples.

Results

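Ccr7, S1pr1, S1pr4 and Cd69 are genes of lymph node entry, egress and retention, and their mRNA levels were measured in regulatory T (Treg) cells from 6 organs of the mouse. These 4 genes were chosen by name for their known roles, out of the 55487 genes of the deposited tables. The rule uses no measured value, but the choice was made with earlier results of these data known. Treg cells are CD4+ T cells defined by the factor Foxp3, and they restrain immune responses. The cells were sorted fresh from wild-type, untreated mice and their poly(A) RNA was sequenced. Each of spleen, liver, peripheral blood, lung, lymph node and bone marrow gave 3 libraries, 18 in all. The labels do not give the age, sex or strain of the mice, the lymph nodes taken, the sorting reporter or gate, the number of animals in a library, how the tissues were dissociated, or whether the 3 libraries of an organ came from separate animals. P-values therefore measure the spread between these libraries, which may be technical.

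CCR7 is the chemokine receptor that guides T cells across high endothelial venules into lymph nodes and into the T cell zones, along the ligands CCL19 and CCL21. Exit runs through sphingosine-1-phosphate (S1P), a lipid that is abundant in blood and lymph and scarce inside tissue. T cells sense it mainly through the receptor S1PR1, while S1PR4 is a related leukocyte receptor that couples to other G proteins and whose part in T cell exit is less clear. CD69, a C-type lectin that appears on the surface soon after activation, binds S1PR1 and takes it from the surface, so that the cell is held in the tissue. CD69 acts on the S1PR1 protein, and mRNA levels do not show how much receptor is at the surface. The transcription factors FOXO1 and KLF2 promote transcription of Ccr7 and of S1pr1.

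All 4 genes lie on the minus strand of mm10 and overlap no other gene in the annotation used here (GENCODE M21). S1pr1 (ENSMUSG00000045092) is on chromosome 3 from 115710433 to 115715072, and S1pr4 (ENSMUSG00000044199) on chromosome 10 from 81497747 to 81500132. Ccr7 (ENSMUSG00000037944) is on chromosome 11 from 99144196 to 99155077, and Cd69 (ENSMUSG00000030156) on chromosome 6 from 129267325 to 129275436. Ccr7, S1pr1 and S1pr4 have 1 annotated transcript each and Cd69 has 5, over which its value was summed. The promoter of S1pr4 is shown from RefSeq (GRCm38.p6, the assembly of mm10) because it was the 1 promoter of the 4 genes found in the table used here. It spans chr10:81500088-81500387, from 250 bases before to 50 after the start, and capitals mark its match to the KLF motif, CACCC, which lies on the opposite strand and so reads GGGTG.
S1pr4 promoter: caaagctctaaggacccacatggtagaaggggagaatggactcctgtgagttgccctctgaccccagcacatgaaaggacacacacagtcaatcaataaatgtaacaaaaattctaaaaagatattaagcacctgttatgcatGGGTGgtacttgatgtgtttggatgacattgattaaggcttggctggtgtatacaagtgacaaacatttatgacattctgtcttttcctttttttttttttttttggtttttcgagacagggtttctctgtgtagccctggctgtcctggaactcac
This short motif, searched on both strands, occurred in 57.5% of the 32851 promoter windows of the table. The motifs of FOXO (GTAAACA, in 3.6% of windows), AP-1 (TGANTCA, 7.8%), NF-kappaB (0.2%) and STAT (TTCNNNGAA, 8.3%) had no match in the S1pr4 window. A match is a run of letters and not a site of binding. The promoters of Ccr7, S1pr1 and Cd69 were not analysed here.

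Values are in TPM, a length-normalized share of all RNA in a library, so that abundant RNA of any kind lowers every other gene. Levels of different genes can be set side by side on this scale. The sorted cells carried the Treg genes: Foxp3 had a mean of 88.7 TPM in blood, 230 to 239 in lung and lymph node, and 140 to 149 in the other organs. The 8 Treg and T cell markers summed to 1256 to 1301 TPM in the blood libraries and 2109 to 2135 in bone marrow, against 2607 to 3529 elsewhere. The 15 neutrophil and monocyte markers, all of them above 1 TPM on average in blood and bone marrow, summed to 28913 to 29778 TPM in blood and 39930 to 40230 in bone marrow. They summed to 1724 to 1792 TPM in lung, 637 to 783 in spleen, 161 to 384 in liver and 40.4 to 77.7 in lymph node. In bulk libraries, fewer cells of a type and less RNA per cell cannot be told apart, and the part of these other RNAs in the values below was not tested. Low TPM values rose in steps that gave the worth of 1 read for a transcript of 1 kb, 0.0788 to 0.0957 TPM in blood and lymph node and up to 0.42 TPM in liver. By these steps, Ccr7, S1pr1 and S1pr4 rested on between 589 and 7937 reads in each library, with a counting error of at most 4.12%.

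Each of the 4 genes differed among the organs, and the size of the difference ranged widely. Organ means of Ccr7 spanned 13.7-fold, those of Cd69 4.22-fold, those of S1pr1 3.05-fold and those of S1pr4 1.55-fold. Among the 6898 genes with at least 10 TPM in every organ, the median span was 1.87-fold, and a span as large as that of Ccr7 was found in 0.7% of genes, of Cd69 in 6.0%, of S1pr1 in 13.3% and of S1pr4 in 78.4%. All 4 genes were called by the limma F test over the 6 organs (adjusted p = 3.22e-14 for Ccr7, 3.29e-11 for S1pr1, 5.16e-11 for Cd69 and 7.55e-07 for S1pr4), a test that also called 68% of the 16694 genes tested. Of the 15 pairs of organs, 14 were called for Ccr7, 13 each for S1pr1 and Cd69 and 10 for S1pr4. The median gene was called in 5 pairs, 3.83% of genes in at least 13 and 1.5% in at least 14. In each of the 50 called values of the 60, the 3 libraries of one organ did not overlap the 3 of the other, and 3 of the 10 values not called did not overlap either. Over all tested genes and pairs, called or not, 47.6% of values did not overlap. The calls and the overlap rest on the same libraries, so the lack of overlap is not separate evidence for the calls.

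**Figure D1:**
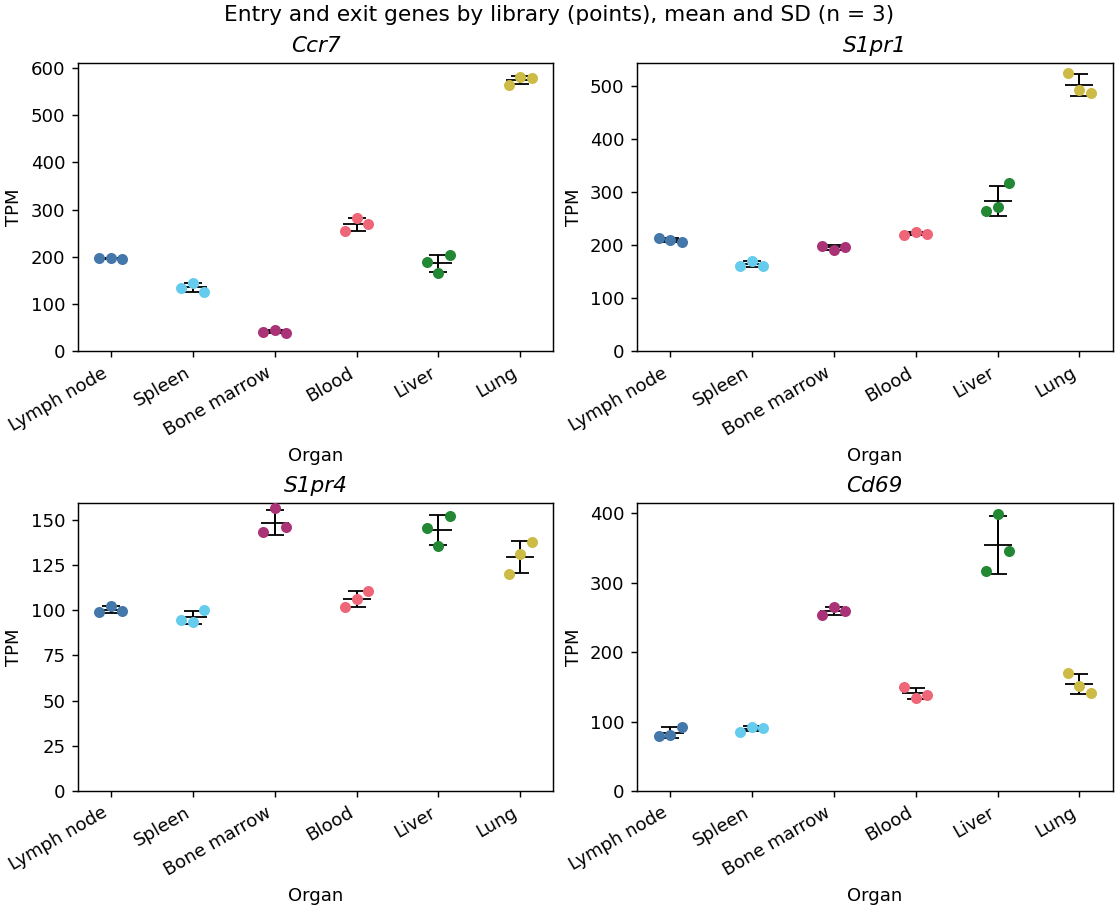
TPM of Ccr7, S1pr1, S1pr4 and Cd69 (vertical axes, TPM, from 0) in the 18 libraries, grouped by organ on the horizontal axis; points are libraries, and bars give the mean and SD (n = 3). Ccr7 and S1pr1 were highest in lung (means of 575 and 501 TPM), Cd69 in liver (354) and S1pr4 in bone marrow (149).

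Ccr7, the entry receptor, was highest in lung and lowest in bone marrow. The lung libraries had 565, 581 and 578 TPM (575 ± 8.51, SD, n = 3), and the bone marrow libraries had 41.3, 44.8 and 39.7 TPM (41.9 ± 2.61). No library of another organ reached either range. The log2 fold change of lung over bone marrow was 3.75 (SE 0.07, limma adjusted p = 7.61e-15), and 43.5% of all tested genes were called between these organs. Ccr7 ranked on average in the top 1.39% of tested genes by TPM in lung and in the top 23.9% in bone marrow.

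Blood came second to lung, with Ccr7 at 255, 281 and 269.7 TPM (269 ± 13.2). Lymph node, the organ that CCR7 serves, had 198, 197 and 195 TPM (197 ± 1.58), and liver had 189, 167 and 203 TPM (186 ± 18.3). The lymph node libraries lay within the range of the liver libraries, and this pair was the 1 of 15 not called for Ccr7 (log2 fold change of lymph node over liver 0.08, 95% confidence interval -0.07 to 0.24, limma adjusted p = 0.413). Spleen followed with 135, 144 and 127 TPM (135 ± 8.96), below all lymph node libraries. From the bottom of the order upward, the steps were 1.67 on the log2 scale from bone marrow to spleen, 0.46 from spleen to liver, 0.45 from lymph node to blood and 1.09 from blood to lung (SE 0.07 each), all called by limma. The mean TPM of Ccr7 was 2.92 times the lymph node value in lung and 0.213 times in bone marrow, and these ratios were 4.51 and 0.327 when levels were set to general T cell genes.

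S1pr1, the egress receptor, was likewise highest in lung, with 525, 492 and 487 TPM (501 ± 20.6). Liver followed with 264, 271 and 316 TPM (284 ± 28.4). Every lung library exceeded every liver library, and every liver library exceeded those of the other 4 organs. The log2 fold change of lung over liver was 0.82 (SE 0.06, limma adjusted p = 4.02e-08) and that of liver over blood 0.35 (adjusted p = 0.000204). The mean TPM of S1pr1 in lung was 2.39 times that in lymph node, and 3.70 times when set to general T cell genes.

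In the other 4 organs S1pr1 lay within a narrow band. Blood had 219, 226 and 221 TPM (222 ± 3.28), lymph node 213, 209 and 206 TPM (209 ± 3.33), and bone marrow 199, 191 and 197 TPM (196 ± 4.15). These 3 ranges did not overlap, yet limma did not call lymph node against bone marrow (log2 fold change 0.10, 95% confidence interval -0.03 to 0.22, adjusted p = 0.317) or blood against lymph node (0.08, -0.04 to 0.21, adjusted p = 0.301). Both calls depended on the processing: limma called blood higher with median-ratio scaling (0.34, adjusted p = 0.00037), T cell scaling (1.29, adjusted p = 5.42e-10) and library weights (0.08, adjusted p = 0.0183). Bone marrow against lymph node was called lower without abundant RNA classes (-0.22, limma adjusted p = 0.0112) and with library weights (-0.10, adjusted p = 0.00742), and called higher with T cell scaling (0.52, adjusted p = 4.59e-05). Blood over bone marrow was called at 0.18 (SE 0.06, adjusted p = 0.0296), and that call was lost without any 1 of the 6 libraries involved (0.17 to 0.19 on the log2 scale, adjusted p = 0.0521 to 0.0991). Spleen was lowest with 161, 171 and 161 TPM (164 ± 5.77), and bone marrow exceeded it by 0.25 on the log2 scale (SE 0.06, limma adjusted p = 0.00511). That step was 0.05 (adjusted p = 0.651) with abundant RNA classes left out of the total and 0.15 (adjusted p = 0.0874) with median-ratio scaling, so its call was lost under both. S1pr1 did not share the bone marrow minimum of Ccr7: the mean TPM of S1pr1 in bone marrow was 0.935 times that in lymph node, and 1.44 times when set to T cell genes.

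S1pr4 was the least variable of the 4 genes, and its organs lay in a lower and a higher range. Spleen had 94.7, 93.6 and 100.03 TPM (96.1 ± 3.45), lymph node 99.0, 102 and 99.8 TPM (100.4 ± 1.78), and blood 102, 106 and 111 TPM (106 ± 4.55). The lymph node libraries overlapped both of the others, while no spleen library reached the blood range. Neither neighbouring step was called by limma (0.06, 95% confidence interval -0.08 to 0.20, adjusted p = 0.65, and 0.08, -0.06 to 0.22, adjusted p = 0.375). Blood over lymph node was called with median-ratio scaling (0.33, adjusted p = 0.000672) and T cell scaling (1.28, adjusted p = 4.38e-11). Lung had 120.2, 131 and 138 TPM (129.7 ± 8.87), liver 146, 136 and 152 TPM (144 ± 8.29), and bone marrow 143, 156 and 146 TPM (149 ± 6.98). Lung exceeded blood by 0.28 on the log2 scale (SE 0.07, limma adjusted p = 0.00237), without overlap. Liver over lung (0.15, 95% confidence interval 0.01 to 0.29, adjusted p = 0.0843) and bone marrow over liver (0.04, -0.10 to 0.18, adjusted p = 0.676) were not called. The largest difference, bone marrow over spleen, was 0.62 (SE 0.07, limma adjusted p = 2.76e-06), between organs where 24.1% of genes were called. Lung against bone marrow (-0.20 on the log2 scale, limma adjusted p = 0.0254) lost its call without bone marrow replicate 2 (-0.16) or lung replicate 1 (-0.14). It was also lost with median-ratio scaling (-0.06, adjusted p = 0.501), without abundant RNA classes (-0.07, adjusted p = 0.455) and without limma's trend and robust settings (adjusted p = 0.0798). Liver over lung was called without liver replicate 2 or lung replicate 3 (0.20 each).

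Cd69, the gene of the retention factor, was low in lymph node and spleen and high in liver and bone marrow. It was lowest in lymph node, with 78.9, 80.5 and 92.6 TPM (84.0 ± 7.52), and in spleen, with 85.2, 91.9 and 91.3 TPM (89.5 ± 3.74). These libraries overlapped, and limma did not call the pair (0.09, 95% confidence interval -0.10 to 0.28, adjusted p = 0.613). Blood had 149, 134 and 139 TPM (140.5 ± 8.02) and lung 169.6, 151 and 140.4 TPM (154 ± 14.8), which overlapped as well (0.13, -0.07 to 0.32, adjusted p = 0.283). Blood nonetheless exceeded spleen by 0.65 on the log2 scale (SE 0.09, limma adjusted p = 2.91e-05).

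Bone marrow and liver held the highest Cd69 levels. The 6 erythroid markers, mostly haemoglobin genes, were also highest there, summing to 10931 to 11969 TPM in liver and 6314 to 6502 in bone marrow, against 72.7 to 75.4 in lymph node and 1426 to 2992 in spleen, blood and lung, and their part in the Cd69 level was not tested. Bone marrow had 254, 265 and 259.9 TPM (259 ± 5.5), and liver had 317, 399 and 346 TPM (354 ± 41.9), the largest SD of any organ for these 4 genes. All bone marrow libraries exceeded all lung libraries, and all liver libraries exceeded all bone marrow libraries. The step from lung to bone marrow was 0.76 on the log2 scale (SE 0.09, limma adjusted p = 5.02e-06) and that from bone marrow to liver 0.44 (adjusted p = 0.00125). From lymph node to liver, the log2 fold change was 2.06 (SE 0.09, limma adjusted p = 8.68e-11), a ratio of TPM means of 4.22. Cd69 ranked in the top 2.12% of tested genes in liver and in the top 11.4% in lymph node.

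Set against lymph node, the 4 genes moved in different combinations. Spleen was lower for Ccr7 and S1pr1 (log2 fold changes of -0.54 and -0.35), so 2 of the 4 genes were called where 14.3% of all tested genes were (4.44% higher and 9.87% lower). Bone marrow gave 3 of 4 calls, Ccr7 lower (-2.20) and S1pr4 and Cd69 higher (0.56 and 1.62), at a background of 22.5% (13.7% higher, 8.89% lower). Blood was higher for Ccr7 and Cd69 (0.45 and 0.74), 2 of 4 calls at a background of 37.4% (16.4% higher, 21% lower). Liver was higher for S1pr1, S1pr4 and Cd69 (0.43, 0.52 and 2.06), 3 of 4 calls at a background of 31.1% (9.45% higher, 21.6% lower). In lung all 4 genes were higher than in lymph node (Ccr7 by 1.54, S1pr1 by 1.25, Cd69 by 0.86 and S1pr4 by 0.37), where 42.3% of genes were called, 14.9% higher and 27.4% lower. The differences between these genes in their lung increase were not tested.

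The pairs without lymph node filled in the pattern. All 4 genes were called between spleen and bone marrow (background 24.1%, 18.2% higher and 5.92% lower in bone marrow), with Ccr7 lower and the other genes higher in bone marrow. All 4 were higher in liver than in spleen (31.3% of genes called, 14% higher and 17.3% lower) and higher in lung than in spleen (40.8%, 18% higher and 22.8% lower). Between blood and bone marrow (31.8%, 13% higher and 18.8% lower in blood) and between lung and bone marrow (43.5%, 13.2% higher and 30.3% lower in lung), bone marrow was lower for Ccr7 and S1pr1 and higher for S1pr4 and Cd69. Liver differed from blood in all 4 genes (39.4%, 16.1% higher and 23.3% lower), lower for Ccr7 (-0.53) and higher for Cd69 (1.32), S1pr4 (0.44) and S1pr1 (0.35). Lung against liver (34.9%, 17.3% higher and 17.6% lower) was higher for Ccr7 (1.63) and S1pr1 (0.82) and lower for Cd69 (-1.20). Between blood and spleen (35.4%, 20.1% higher and 15.3% lower in blood), Ccr7 (0.99), Cd69 (0.65) and S1pr1 (0.43) were higher in blood. Lung against blood (43.7%, 17.3% higher and 26.4% lower) was called for Ccr7, S1pr1 and S1pr4, and liver against bone marrow (34.5%, 9.36% higher and 25.1% lower) for Ccr7 (2.12), S1pr1 (0.53) and Cd69, all higher in the organ named first.

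Ratios between these genes within a library do not change with the scaling of the library, though RNA of other cells that carry one of the genes enters them. They are given as geometric means of 3 libraries with the range, with no test. S1pr1 exceeded Cd69 in lung (3.27, 3.10 to 3.47), lymph node (2.50, 2.22 to 2.70), spleen (1.84, 1.77 to 1.89) and blood (1.58, 1.47 to 1.69). In liver (0.803, 0.68 to 0.913) and bone marrow (0.755, 0.723 to 0.786) Cd69 exceeded S1pr1 in every library. The ranges of lung, lymph node, spleen and blood did not overlap one another, and those of liver and bone marrow did. The ratio of Ccr7 to Cd69, in contrast, did separate bone marrow from liver, at 0.162 (0.153 to 0.169) against 0.526 (0.418 to 0.596). It was 1.51 in spleen (1.386 to 1.581), 1.91 in blood (1.709 to 2.107), 2.35 in lymph node (2.105 to 2.511) and 3.75 in lung (3.332 to 4.119). The ranges of blood and lymph node overlapped.

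**Figure D2:**
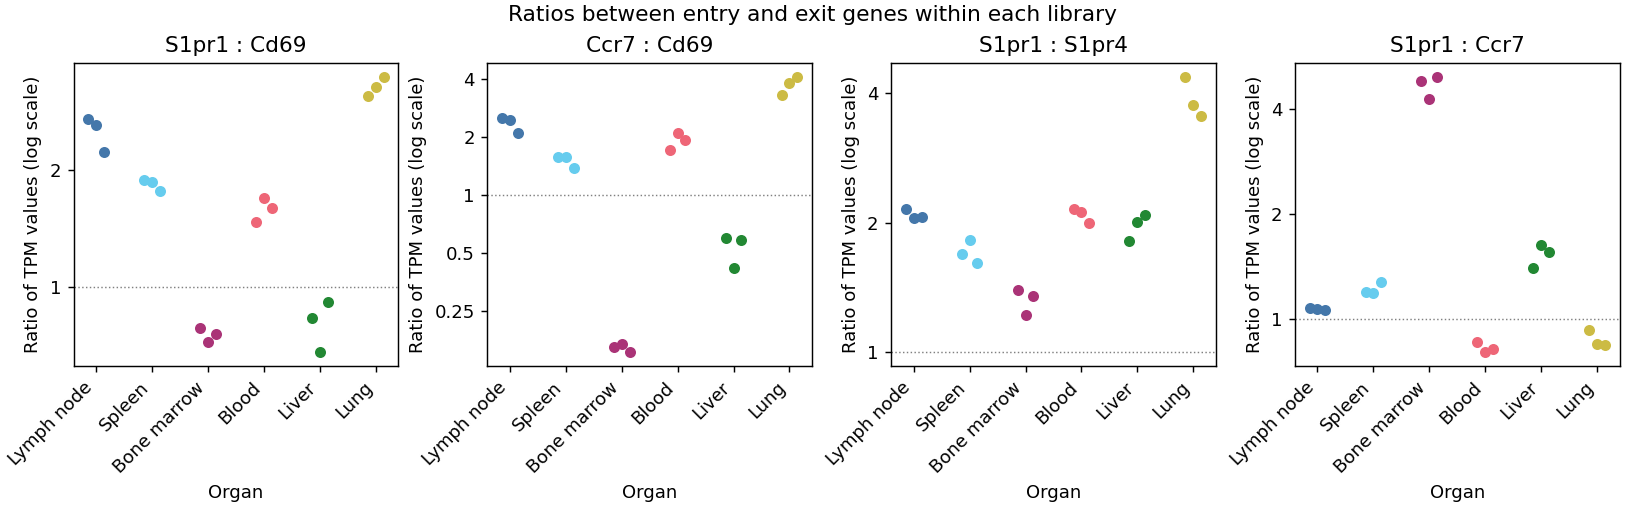
Ratios of TPM values between pairs of entry and exit genes within each library (vertical axes, log scale; the dotted line marks equal levels), by organ. Cd69 exceeded S1pr1 in the liver and bone marrow libraries (0.68 to 0.913), and S1pr1 exceeded Ccr7 most in bone marrow (4.27 to 4.95).

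The balance of egress to entry receptor set bone marrow apart in the other direction. S1pr1 exceeded Ccr7 by 4.67-fold in bone marrow (4.27 to 4.95), by 1.52-fold in liver (1.40 to 1.63) and by 1.22-fold in spleen (1.18 to 1.27). In lymph node the transcripts were at nearly equal level (1.06, 1.06 to 1.07). Lung (0.872, 0.841 to 0.929) and blood (0.827, 0.802 to 0.859) had more Ccr7 than S1pr1 in every library. Between the S1P receptors, S1pr1 was the more abundant in all 18 libraries, by 1.32-fold in bone marrow, 1.71-fold in spleen, 1.96-fold in liver, 2.09-fold in lymph node and blood and 3.87-fold in lung.

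Across the 6 organ means of deposited TPM on the log2 scale, S1pr4 and Cd69 ranked the organs most alike (Pearson r = 0.93, Spearman rho = 0.89, n = 6), and Ccr7 and S1pr1 had r = 0.72 and rho = 0.77. For Ccr7 and Cd69, r was -0.27, and for S1pr1 and Cd69 it was 0.29. These points share libraries and total RNA, and the coefficients are descriptions of these organs on the deposited scale. When levels were set to general T cell genes, S1pr4 was highest in blood and Cd69 in liver.

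Because the summed T cell markers differed between organs, levels were also set to 15 general T cell genes such as Cd3e, Lck and Bcl11b. These 15 genes summed to 5306 to 5454 TPM in lung and 6356 to 6741 in liver, against 7702 to 7725 in lymph node. The 8 Treg and T cell markers were not lower there, at 3292 to 3393 TPM in lung and 3229 to 3529 in liver, against 3114 to 3192. Whether the 15 genes differ in level per T cell between organs was not tested, and ratios on this scale depend on the genes chosen. On that scale the blood libraries were divided by 0.588 to 0.622 and the lymph node libraries by 1.40 to 1.41, so that all blood values became higher and all lymph node values lower. The median log2 fold change of all tested genes between blood and lymph node moved from -0.15 to 0.80. Ccr7 kept lung first (mean 630.3, 617 to 643), blood second (441 ± 9.72) and bone marrow last (45.8 ± 2.54), and liver (161 ± 16.4) moved above lymph node (139.8 ± 1.40). S1pr1 also kept lung first (550.4 ± 41.4), while blood (365 ± 7.11) moved above liver (246 ± 31.5) and bone marrow (214 ± 9.13). Lymph node (149 ± 2.43) and spleen (140.2 ± 3.55) had the lowest S1pr1 on this scale.

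S1pr4 and Cd69 changed places more. S1pr4 was highest in blood (175 ± 4.79) and bone marrow (162 ± 4.98), then lung (142 ± 5.09), liver (125 ± 8.19), spleen (82.1 ± 3.19) and lymph node (71.3 ± 1.67). Cd69 remained highest in liver (307 ± 47.2) and bone marrow (283 ± 1.33), which then overlapped (log2 fold change 0.11, limma adjusted p = 0.45), and lowest in spleen (76.4 ± 2.40) and lymph node (59.7 ± 5.24). Blood (231 ± 20.2) passed lung (169 ± 22.0) for Cd69. Of the 60 values of gene and organ pair, 8 turned direction under this scaling with a call on either scale. S1pr4 in spleen over lymph node also turned, from -0.06 to 0.20, and was not called on either (limma adjusted p = 0.65 and 0.0525). The lung maximum and bone marrow minimum of Ccr7, the lung maximum of S1pr1 and the low Cd69 of lymph node and spleen held on both scales.

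**Figure D3:**
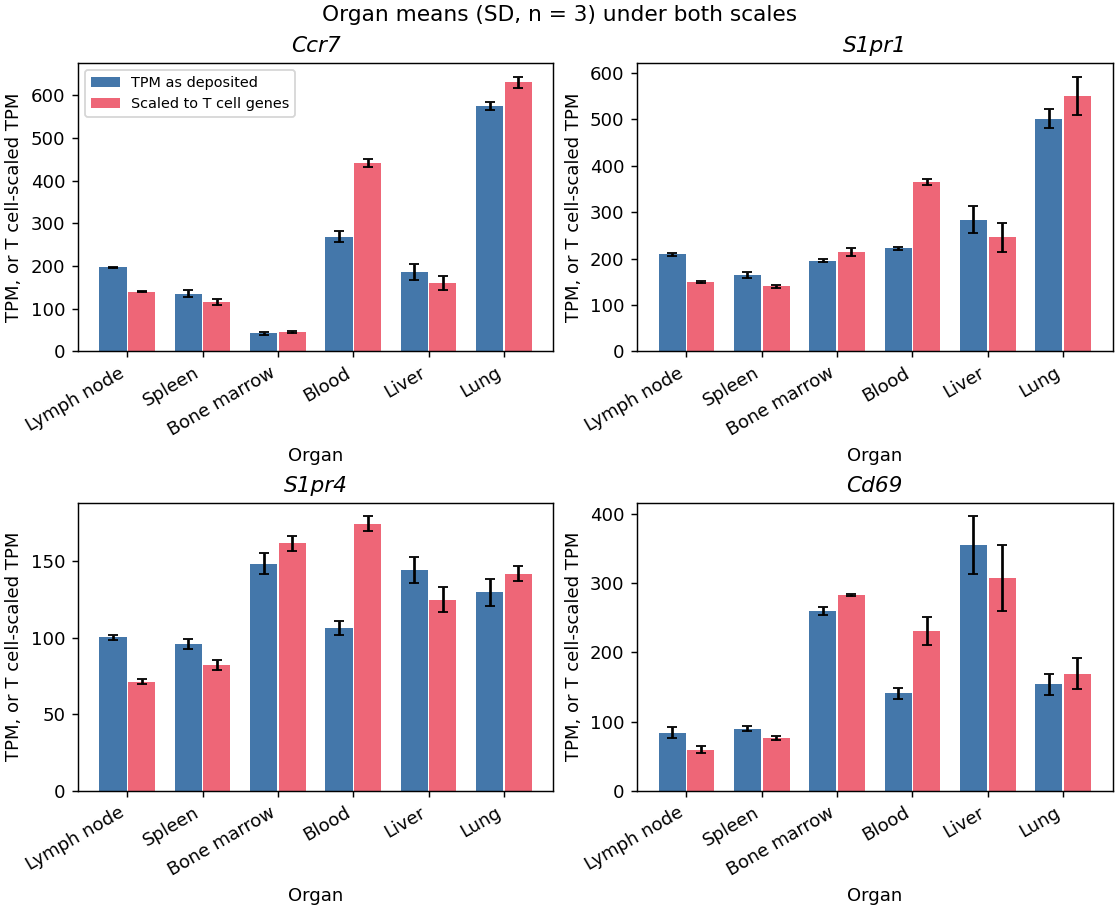
Organ means of Ccr7, S1pr1, S1pr4 and Cd69 as deposited (blue) and set to 15 T cell genes (red); bars start at 0 and error bars are the SD (n = 3). Scaling raised all blood values and lowered all lymph node values, and left lung the highest organ for Ccr7 (630.3) and S1pr1 (550.4).

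Other genes of entry, chemokine guidance and adhesion were taken from a list of 13, all of which were called by the limma F test (background 68%). Against lymph node, 3 were higher and 7 lower in spleen, 4 and 5 in bone marrow, 6 and 6 in blood, 6 and 7 in liver, and 4 and 8 in lung. The shares of all tested genes called were 14.3%, 22.5%, 37.4%, 31.1% and 42.3%, in the same order of organs. The median log2 fold change of the list in lung was -0.64, beside -0.20 for all tested genes. With T cell scaling, 9.54% of all tested genes were called between spleen and lymph node (7.51% higher), 44.5% in bone marrow (42.6% higher), 61.1% in blood (59.5% higher), 23.9% in liver (14.6% higher) and 40% in lung (30.2% higher), so that mostly higher calls were the background for each list on that scale. The counts of this list became 3 and 3 in spleen, 8 and 2 in bone marrow, 10 and 2 in blood, and 6 and 4 in lung.

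Cxcr4, whose product holds cells in the bone marrow along the ligand CXCL12, had the widest range of the list, from 54.7 ± 2.53 TPM in lymph node to 620 ± 17.7 in bone marrow and 577 ± 39.0 in liver. Cd69 was highest in the same organs, in the opposite order. Ccr4, a receptor tied to skin and lung homing, ranged from 10.6 ± 0.50 TPM in blood to 96.5 ± 3.84 in lung. Cxcr3, which follows interferon-induced chemokines, ranged from 22.9 ± 2.53 TPM in blood to 138 ± 6.66 in bone marrow. Cxcr5, the receptor for B cell follicles, was highest in spleen (66.4 ± 12.2) and lowest in lung (11.1 ± 3.82), where Ccr7 was highest. All 4 were called by the limma F test (adjusted p between 1.38e-15 for Cxcr4 and 5.45e-06 for Cxcr5). The neutrophil and monocyte markers were highest in bone marrow, at 39930 to 40230 TPM, but only 161 to 384 in liver. The B cell markers were highest in spleen. The part of these cells' RNA in the levels of Cxcr4 and Cxcr5 was not tested.

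The ligands of CCR7 and its scavenger receptor, Ccl19, Ccl21a and Ackr4, are products of stromal and endothelial cells and had mean values of at most 0.36 TPM in any organ, below the filter. The other 21 genes of CCR7 signalling were all called by the limma F test (background 68%). Against lymph node, 0 were higher and 8 lower in spleen, 3 and 2 in bone marrow, 9 and 5 in blood, 4 and 7 in liver, and 6 and 10 in lung. In the same order, 14.3%, 22.5%, 37.4%, 31.1% and 42.3% of all tested genes were called. With T cell scaling, the counts became 0 and 1 in spleen, 19 and 0 in bone marrow, 21 and 0 in blood, 7 and 3 in liver and 9 and 5 in lung. Stk4, the kinase MST1 of integrin activation, was highest in lung, as Ccr7 was, at 427 ± 32.2 TPM against means of 132 to 185 elsewhere. Arrb2, an arrestin that takes activated receptors inside, was lowest in lung at 77.6 ± 19.9 TPM, against 171 ± 40.8 in liver and 239 to 258 in the other organs, and its fall from lymph node held with T cell scaling (log2 fold change -1.73 as deposited and -1.10 scaled). The receptor kinases Grk3 (34.1 ± 2.78 TPM) and Grk5 (18.6 ± 1.23 TPM) were highest in blood, and neither had an organ mean above 4.32 TPM elsewhere. The neutrophil and monocyte markers were high in blood and higher in bone marrow, where Grk3 had 4.32 ± 0.09 TPM and Grk5 4.3 ± 0.34. The 7 platelet markers and the 8 cytotoxic and natural killer markers were highest in blood, with mean sums of 2223 and 582 TPM, against 78.7 and 83.6 in bone marrow. The part of these cells' RNA in the Grk3 and Grk5 levels was not tested.

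Genes of the S1P receptors, of S1P metabolism and transport and of signalling below the receptors formed a list of 30, of which 28 passed the filter. The limma F test called 26 of them (background 68%). Against lymph node, 2 were higher and 6 lower in spleen, 5 and 3 in bone marrow, 9 and 5 in blood, 4 and 7 in liver, and 4 and 9 in lung. Background shares of all tested genes called were 14.3%, 22.5%, 37.4%, 31.1% and 42.3%, in the same order. With T cell scaling, which called 44.5% of all genes in bone marrow and 61.1% in blood, nearly all higher, the counts became 3 and 2 in spleen, 20 and 1 in bone marrow, 24 and 0 in blood, 5 and 3 in liver, and 13 and 3 in lung. The S1P receptors other than S1pr1 and S1pr4 were low in most organs. S1pr2 had organ means of 1.56 to 5.24 TPM, and S1pr3 of 0 to 0.90 TPM. S1pr5, the egress receptor of natural killer cells, had a blood mean of 28.4 ± 1.47 TPM, 1.94 ± 0.74 in spleen and at most 1.14 on average elsewhere, with all 3 liver libraries at 0. The cytotoxic and natural killer markers, all 8 above 1 TPM in blood, summed to 558 to 610.1 TPM there and to at most 123.2 in any other library, and their part in the S1pr5 level was not tested.

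Mfsd2b, the S1P exporter of red cells and platelets, had a blood mean of 34.0 ± 0.26 TPM and organ means of at most 12.49 elsewhere. Cers6, a ceramide synthase, had a blood mean of 43.0 ± 0.32 TPM and organ means of at most 12.1 elsewhere. The 7 platelet markers summed to 2209 to 2244 TPM in blood and to at most 82.8 in any other library. The erythroid markers were highest in liver, where Mfsd2b had a mean of 1.0 ± 1.04 TPM. The part of platelet and erythroid RNA in the Mfsd2b level was not tested. Sphk1, a kinase that makes S1P, had 16.6 ± 1.11 TPM in bone marrow and organ means of at most 1.46 elsewhere, where blood and liver were listed at 0. The 6 eosinophil and mast cell markers summed to 206 to 221 TPM in bone marrow and to at most 14.7 in any other library. The neutrophil and monocyte markers were highest in bone marrow too, and the part of these cells' RNA in the Sphk1 level was not tested. Gna13 and Arhgef1, which relay the migration block of S1PR2 and were chosen after their values were seen, moved apart: Gna13 was highest in lung (390.3 ± 21.1 TPM, against 77.1 ± 2.15 in lymph node) and Arhgef1 was lowest there (481 ± 9.38, against 1491 ± 15.7 in lymph node). Both differences kept their direction with T cell scaling (log2 fold changes of 2.94 and -1.004).

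The list of 20 transcription factors tied to the entry and exit receptors was called for 19 genes by the limma F test (background 68%). Against lymph node, 3 were higher and 11 lower in spleen, 7 and 6 in bone marrow, 8 and 8 in blood, 8 and 6 in liver, and 9 and 3 in lung, with a median in lung of 0.43 beside -0.20 for all genes. Called shares of all tested genes were 14.3%, 22.5%, 37.4%, 31.1% and 42.3%, in the same order. With T cell scaling the counts became 5 and 4 in spleen, 14 and 4 in bone marrow, 16 and 1 in blood, 10 and 6 in liver, and 15 and 2 in lung. Klf2, an activator of S1pr1, and Foxo1, which lies above it, are given for their roles, outside the rule for naming genes. Klf2 had 776 ± 12.9 TPM in bone marrow, 643 ± 70.2 in liver, 627 ± 38.5 in blood, 343 ± 14.6 in lung, 203 ± 12.3 in spleen and 185 ± 6.09 in lymph node. That order was not the one of S1pr1: the ratio of S1pr1 to Klf2 was 1.46 in lung (1.36 to 1.60), 1.13 in lymph node, 0.808 in spleen, 0.442 in liver, 0.355 in blood and 0.252 in bone marrow, with no overlap between organs. Over the 6 organ means, Klf2 had r = 0.13 with S1pr1, -0.31 with Ccr7, 0.76 with S1pr4 and 0.86 with Cd69. Foxo1 had 70.4 ± 2.73 TPM in lung and 67.5 ± 0.60 in lymph node, and 40.4 to 49.9 on average in the other organs.

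Satb1, an organizer of T cell chromatin, ranked the organs almost as Ccr7 did, with 419 ± 36.5 TPM in lung, 148 ± 2.12 in lymph node, 137 ± 4.22 in blood, 95.2 ± 3.38 in liver, 91.9 ± 2.38 in spleen and 44.4 ± 1.36 in bone marrow (r = 0.95 over the 6 organ means). Klf6 was lowest in lymph node and highest in liver, as Cd69 was, from 52.5 ± 2.31 TPM in lymph node to 506 ± 44.8 in liver. Id2, an inhibitor of E proteins in effector cells, ran from 41.2 ± 3.44 TPM in lymph node to 323 ± 27.2 in lung. Zeb2, a factor of effector lymphocytes and of myeloid cells, peaked in blood (62.2 ± 3.91 TPM). Its next highest mean was 14.5 ± 0.55 TPM, reached in bone marrow. The neutrophil and monocyte markers ran the other way, with a larger sum in bone marrow (39930 to 40230 TPM) than in blood (28913 to 29778). The cytotoxic and natural killer markers peaked in blood, as Zeb2 did. How much of the Zeb2 level came from RNA of these cells was not tested.

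Genes of retention and tissue residence, a list of 20, were all called by the limma F test (background 68%). Against lymph node, 13 were higher and 3 lower in liver (median 0.72, all genes -0.19), 12 and 4 in lung (0.76, all genes -0.20), 9 and 3 in bone marrow (0.35, all genes -0.004), 9 and 9 in blood, and 3 and 6 in spleen. Among all tested genes, 31.1%, 42.3%, 22.5%, 37.4% and 14.3% were called, in this order of organs. With T cell scaling the counts were 13 and 2 in liver, 14 and 3 in lung, 15 and 1 in bone marrow, 13 and 5 in blood, and 5 and 6 in spleen. Crem, a cAMP-responsive factor, had 1337 ± 32.9 TPM in lung and 503 ± 26.2 in liver, and 11.8 to 38.2 on average elsewhere. Bhlhe40 had 404 ± 36.5 TPM in lung, 368 ± 24.1 in liver and 26.9 to 68.4 elsewhere. Rgs16, a brake on chemokine receptor signals, was highest in liver (169 ± 10.7 TPM) and lowest in blood (1.56 ± 0.21). Rgs2 ranged from 26.8 ± 2.13 TPM in lymph node to 929 ± 121 in lung. Itgae, the integrin chain of epithelial retention, was chosen after its values were seen: it was highest in lymph node (104 ± 2.98 TPM) followed by bone marrow (49.7 ± 1.09), liver (44.4 ± 4.04), lung (39.3 ± 3.51), spleen (17.9 ± 3.13) and blood (6.37 ± 0.97), so that it was highest in the organ of lowest Cd69.

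Activation genes of the kind that accompany Cd69 formed a list of 25, all called by the limma F test (background 68%). Against lymph node, 17 were higher and 5 lower in liver (median 1.46, all genes -0.19), 17 and 6 in lung (1.61, all genes -0.20), 15 and 9 in bone marrow (0.82), 11 and 11 in blood (0.08, all genes -0.15) and 10 and 8 in spleen (0.03, all genes -0.11). Between these organs and lymph node, 31.1%, 42.3%, 22.5%, 37.4% and 14.3% of all tested genes were called, in this order. With T cell scaling, blood had 18 and 4, and spleen 12 and 5. The immediate early genes differed in their organ of highest level. Fos had 2198 ± 12.9 TPM in bone marrow and Fosb 362 ± 5.16, against 48.7 ± 0.46 and 2.82 ± 0.04 in lymph node. The neutrophil and monocyte markers were also highest in bone marrow, and their part in the Fos and Fosb levels was not tested. Fosl2 (370.2 ± 20.1 TPM) and Nr4a3 (142 ± 13.1 TPM) were highest in lung, and Nr4a3 was low in bone marrow (4.01 ± 0.66) and blood (2.12 ± 0.15).

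**Figure D4:**
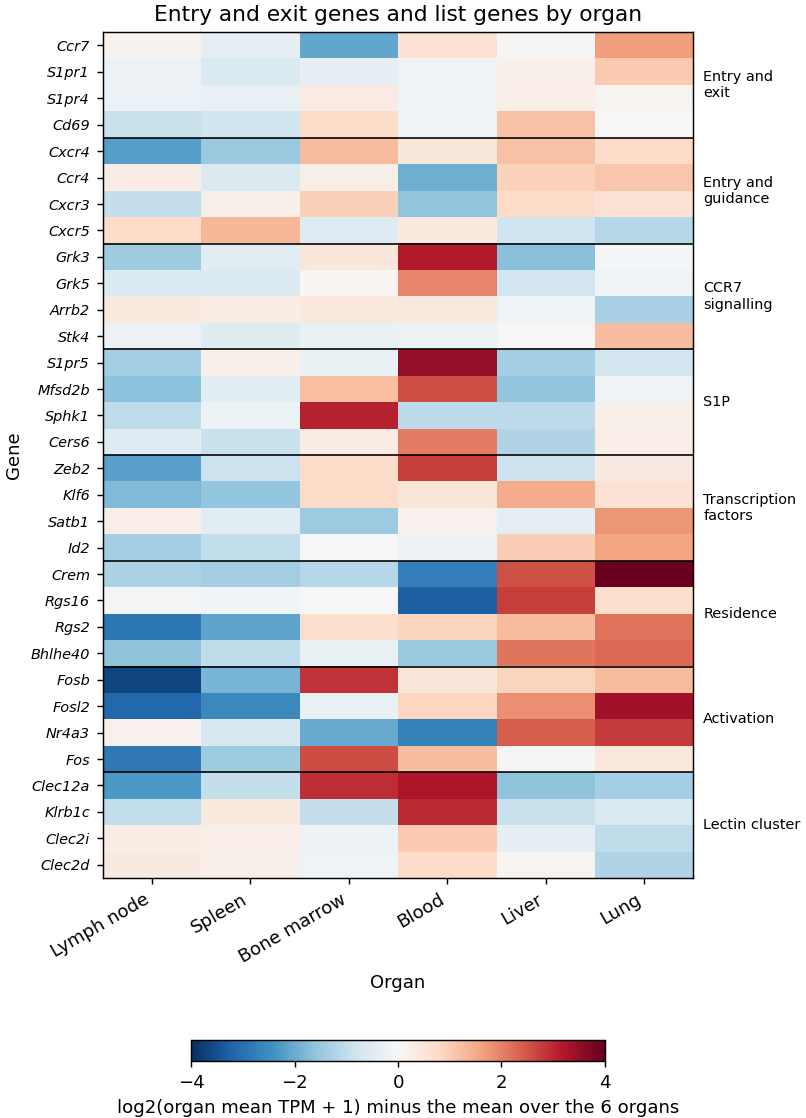
Organ levels of the entry and exit genes and of the genes named from 7 lists (rows), as log2 of the organ mean TPM + 1 minus the mean over the 6 organs (colour, -4 to 4; red is above the gene's mean and blue below), for the 6 organs (columns). Cd69, Cxcr4 and Klf6 were lowest in lymph node and spleen, Satb1 and Ccr7 were highest in lung and lowest in bone marrow, and S1pr5 (28.4 TPM) and Grk3 (34.1 TPM) were highest in blood.

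Cd69 lies in a cluster of C-type lectin genes, and 5 of its neighbours were listed to ask whether they shared its pattern. All 5 were called by the limma F test (68% of all genes) and all 5 were highest in blood, as were 18.5% of all tested genes, while Cd69 was highest in liver. Clec2d had 255 ± 21.3 TPM in blood, 198 ± 2.01 in lymph node, 167 ± 36.4 in liver and 66.7 ± 3.70 in lung, and Clec2i had 112 ± 8.86 TPM in blood and 26.2 ± 3.12 in lung. Clec12a, a myeloid lectin, had means of 73.0 ± 5.20 TPM in blood, 60.0 ± 1.37 in bone marrow and at most 3.06 elsewhere, beside the neutrophil and monocyte markers. Klrb1c, a natural killer receptor, had 34.1 ± 2.29 TPM in blood and organ means of at most 4.77 elsewhere. None of these named neighbours was highest in liver.

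Across the 18 libraries, the genes whose log2(TPM + 1) followed each entry or exit gene most closely were named by Pearson r, as a description of libraries that share organs and total RNA. For Ccr7 these were Tdrp (r = 0.977), Satb1 (0.95) and Txk (0.946), a kinase of T cells. For S1pr1 they were the interferon receptor chain Ifnar1 (0.985), the nuclear envelope gene Lemd3 (0.984) and Birc3 (0.982), an inhibitor of cell death. For S1pr4 they were Jund (0.951), the glycolytic gene Aldoa (0.944) and Atf4 (0.943). For Cd69 they were the integrin chain Itgb1 (0.985), Jun (0.956) and the glycolytic gene Tpi1 (0.948). Of the 9397 genes compared, 181 reached r of at least 0.9 with S1pr1, against 14 with Cd69, 12 with S1pr4 and 7 with Ccr7. Itgb1, for example, had 194 TPM in lymph node, 505 in bone marrow and 669 in liver, and Ifnar1 had 74.6 in spleen and 258 in lung.

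Markers of other cells moved with some of these organs. B cells and dendritic cells also express Ccr7. The 8 B cell markers summed to 1845 to 1905 TPM in spleen, 1308 to 1501 in blood and bone marrow, 629 to 640.4 in lymph node and 307 to 419 in liver and lung. Their sum was lowest in lung, where Ccr7 was highest, and high in bone marrow, where Ccr7 was lowest. The part of B cell RNA in the Ccr7 level was not tested. The 8 dendritic cell markers, of which 6 exceeded 1 TPM on average in lung and in blood, summed to 34.6 to 58.4 TPM in lung, 54.5 to 58.6 in blood, 29.8 to 34.9 in bone marrow and at most 14.2 in the other organs, with Siglech at 0 in liver. Their highest sums were thus in the organs of highest Ccr7, and their part in the Ccr7 level was not tested. The 5 lung epithelial markers summed to 225 to 297 TPM in lung and were all at 0 in lymph node, blood and liver, and the 5 hepatocyte markers summed to 5.10 to 17.9 TPM in liver. S1pr1 is also a gene of endothelium. The 8 endothelial and stromal markers summed to 112 to 141 TPM in lung, 107 to 134 in liver, 75.5 to 90.8 in spleen and 101 to 109 in the other organs. Most of each sum was Pecam1, which leukocytes also carry (68.5 to 122.6 TPM on average), while the endothelial genes Cdh5 and Kdr had organ means of at most 2.08 and 5.16 TPM, both highest in liver. The part of these RNAs in the levels of S1pr1, S1pr4 and Cd69 was not tested.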

How the data were processed

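Each library's deposited file lists TPM for 55487 Ensembl genes, and the submitters' processing notes name STAR, RSEM and mm10 without versions. The annotation and the use of strand in counting are not given in the sources used here, and TPM sums were 999999.27 to 1000000.62 per library. Directional libraries were made from poly(A) RNA, per the labels' protocols. Symbols came from GENCODE M21 names, which matched 55141 IDs. limma (3.58.1, R 4.3.3) was fitted to log2(TPM + 1) of the 16694 genes whose average reached 1 TPM in 1 organ or more, with 1 coefficient per organ and eBayes with trend and robust settings. Each fold change is therefore on the log2(TPM + 1) scale and understates that of low genes. An F test and 15 organ pairs were adjusted by Benjamini-Hochberg over all tested genes and called at an adjusted p under 0.05. The fit was tested on simulated data. The genes, lists and tests were chosen with earlier results of these data known. The rule named the 3 genes of highest Pearson r with each gene and, per list, up to 4 called genes of widest range, among genes averaging 10 TPM or more in 1 organ. The 29 alternatives changed the pseudocount, the filter, the scaling, the weights, the variance model, the replicate block or the organs fitted, or left out 1 library. 1 gene of the entry list is not reported here by name.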

Additional observations from a re-analysis of the deposited data

How the results depend on the processing

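The F test called each of the 4 genes under all 29 alternatives (adjusted p at most 2e-04, limma). Of the 60 values of gene and organ pair, 43 kept their call in all of them, and their direction where called. Some values changed direction without a call. Among them were S1pr4 in spleen over lymph node (-0.09 to 0.20 over the alternatives), blood over spleen (0.14, lowest -0.004) and liver over bone marrow (-0.04, highest 0.09). All reversals with a call on either side came from scaling to T cell genes: Ccr7 in lymph node over liver (-0.20), S1pr1 in lymph node over bone marrow (-0.52) and in liver over blood (-0.57), S1pr4 in lung over blood (-0.30), in liver over lung (-0.19), in liver over blood (-0.48) and in blood over bone marrow (0.11), and Cd69 in lung over blood (-0.45). The construction of that scale, which divides blood libraries by at most 0.622 and lymph node libraries by at least 1.40, moves all genes together. Under it, the share of calls that were higher in blood than in lymph node went from 43.9% to 97.3%, and in bone marrow than in lymph node from 60.6% to 95.7%. Pairs called ranged over the alternatives from 14 to 15 for Ccr7, 12 to 15 for S1pr1, 9 to 13 for S1pr4 and 13 to 13 for Cd69, and without 1 library from 14 to 14, 12 to 13, 9 to 11 and 13 to 13. The genes called by the F test numbered 10719 to 11846 without 1 library and 7547 without blood and bone marrow, a fit with fewer samples. With the replicate block 11192 genes were called and no call of the 4 genes changed, and same-numbered libraries did not deviate together (r from -0.034 to 0.03 over 45 pairs). Library weights moved calls of all genes between bone marrow and lymph node from 3764 to 7766. The S1pr4 call of lung against bone marrow (-0.20, limma adjusted p = 0.0254) was lost without bone marrow replicate 2 or lung replicate 1, with median-ratio scaling (-0.06) and without abundant RNA classes (-0.07), and its liver over lung value was called without liver replicate 2 or lung replicate 3 (0.20 each). The S1pr1 step from lymph node to spleen (-0.35) was lost with T cell scaling (-0.09) and with median-ratio scaling. By Spearman's rho, 0 of the 3 genes named for Ccr7 and 1 of 3 for each of the others remained. Depth, lowest in liver, limits the low genes most.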
